A study of Homo sapiens with 6 samples.

Results

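The genes described here mark the mesenchymal and epithelial states of cells. They are CDH1, CDH2, VIM, FN1, SNAI2, ZEB1, TWIST1, KRT8, KRT18 and EPCAM, and they were followed through every probe set that the platform annotation assigns to 1 of these 10 symbols alone. They are 10 of the 11963 genes with a singly named probe set, and 19 of the 19065 such probe sets. The cells were HT1080, an established line from a human fibrosarcoma, and total RNA was measured on 6 single-channel oligonucleotide arrays. All cells carried the pGUS vector with GFP. The mock group (2 arrays) had that vector alone, the MT1 group (2 arrays) had it with an siRNA against the transcript of MT1-MMP, the membrane-anchored collagenase encoded by MMP14, and the alpha3 group (2 arrays) had it with an siRNA against integrin alpha3, the laminin receptor subunit encoded by ITGA3. The control was therefore the vector without an siRNA. The labels name no separate cultures or clones, so every p-value reflects array-to-array spread that may be no more than technical. No batch is named.

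Epithelial cells hold together through E-cadherin (CDH1) and EpCAM (EPCAM) and carry a cytoskeleton of keratins, of which keratin 8 (KRT8) and keratin 18 (KRT18) form a pair. Mesenchymal cells carry N-cadherin (CDH2) and the intermediate filament vimentin (VIM), and lay down fibronectin (FN1). The zinc finger factors Slug (SNAI2) and ZEB1 and the helix-loop-helix factor TWIST1 can drive the passage from the first state to the second, and Slug and ZEB1 are known to repress CDH1 through E-box sequences in its promoter. A fibrosarcoma is a tumour of mesenchymal type.

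A probe set was tested when its mean log2(signal + 32) over the 6 arrays lay above the 40th percentile, which corresponds to a signal of 47.5. Of the 19 probe sets 15 passed, and they cover 8 of the 10 genes. Both probe sets of CDH1, the single one of EPCAM and 1 of the 6 of FN1 did not. FN1 accounts for 5 of the 15, so counts are also given per gene, each gene being represented by its brightest tested probe set. Differences are on the log2(signal + 32) scale, which understates those of dim probe sets, and a probe set was called where its p-value from limma, adjusted by Benjamini-Hochberg over all 11828 probe sets tested, was under 0.05.

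The arrays had median signals from 72.9 to 83.1, and the MT1 arrays had the lowest 3' to 5' ratios of GAPDH (0.879 and 0.899, others up to 0.935) and the highest of actin (1.01 and 0.917, others down to 0.850). Over the tested probe sets, mock replicate 1 correlated more closely with alpha3 replicate 2 (r = 0.969) than with mock replicate 2 (r = 0.961), and probe sets are not independent replicates. The 18 spiked hybridisation controls were brightest on the MT1 arrays (median 2.30 and 1.29 times the mock mean) and dimmest in the alpha3 group (0.812 and 0.841 times), with mock at 0.927 and 1.07 times. MMP14 had its lowest mean in the MT1 group on all of its 4 probe sets (811.9 and 717 on the brightest, against 1971 and 3064 in mock). With alpha3 siRNA its mean was also below that of mock on all 4 (998.9 and 1804 on the brightest, without overlap). ITGA3 was lowest in the alpha3 group (148 and 347 against 1139 and 1290 in mock, and 1481 and 1634 with MT1 siRNA). Neither target was called against mock. The limma adjusted p was 0.164 for ITGA3 with alpha3 siRNA and from 0.116 to 0.179 for MMP14 with MT1 siRNA. A difference without a call is therefore not an absence of change. Alpha3 replicate 1 stood apart in having 2 values below 1, where the other arrays had 56 to 91.

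The epithelial adhesion genes EPCAM and CDH1 were dim on every array. EPCAM, a homophilic adhesion molecule of epithelia, had signals of 3.8 and 6.7 in mock, 4.2 and 2.6 with MT1 siRNA, and 6.3 and 2.4 with alpha3 siRNA. Its groups overlapped, and all 6 values lay far below the filter. CDH1, the adherens junction cadherin of epithelia, had 28.4 and 29.3 in mock, 12.3 and 20.9 with MT1 siRNA, and 9.3 and 4.4 with alpha3 siRNA on 201130_s_at. On this probe set the mock arrays were the highest and the alpha3 arrays the lowest, without overlap, but the values stayed under the filter and were not tested. Its other probe set, 201131_s_at, lay between 1.0 and 4.2 with overlapping groups, so the 2 probe sets gave no common order.

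A list of 10 epithelial markers leaves out KRT8 and KRT18, which were bright (431 to 1457 and 1807 to 3220). It also leaves out the desmosomal cadherin DSG2 (567 to 1092.5). Most markers in the list were dim. Of its 10 markers, all on the array and CDH1 and EPCAM among them, 1 had a mean above the filter. That was KRT7, a keratin of simple epithelia, with 48.8 and 54.8 in mock, 54.5 and 22.3 with MT1 siRNA, and 128 and 40.8 with alpha3 siRNA. KRT19, a keratin of simple epithelia, stayed between 1.7 and 5.5, and the tight junction claudins CLDN3 and CLDN4 between 4.8 and 15. KRT5, a keratin of basal epithelia, ran from 25.5 to 93.1 and was above the filter signal on 2 arrays, and the epithelial regulators GRHL2 and ESRP1 reached 56 and 50.8 on 1 array each. The summed signal of the 10 markers was 183 and 301.5 in mock, 205 and 189 with MT1 siRNA, and 262.5 and 166 with alpha3 siRNA, so the groups overlapped. Of 10 fibroblast and mesenchymal markers 8 were above the filter, and PDGFRB and COL3A1 were not. The summed signal of these 10 was 19481 and 23478 in mock, 39678 and 29824 with MT1 siRNA, and 23370 and 18705 with alpha3 siRNA. Both MT1 arrays were thus the highest, but VIM, FN1 and CDH2, which are among the genes described, are part of this sum. Among endothelial markers 3 of 9 were above the filter, PECAM1 (48.6 to 108), TIE1 (31.4 to 719) and ENG (264 to 460.5), while the defining genes CDH5 and VWF stayed below 28 on every array. Their sum was 621 and 1347 in mock, 772.5 and 538 with MT1 siRNA, and 593 and 632 with alpha3 siRNA. Among leukocyte markers 4 of 8 were above it, CD3E (61.5 to 107), ITGAM (61.1 to 107), CD2 (43.3 to 75.9) and CSF1R (69.1 to 142), while PTPRC stayed below 22. Their sum was 411 and 431 in mock, 407 and 388 with MT1 siRNA, and 522 and 291 with alpha3 siRNA, so both sums overlapped between groups. Among smooth muscle and pericyte markers 2 of 7 were above it, ACTA2 and TAGLN, while MYH11, CNN1 and DES stayed below 33. Their sum was highest in the MT1 group, with 541 and 796 in mock, 1241 and 933 with MT1 siRNA, and 851 and 468 with alpha3 siRNA. Of the markers of the labelled fibrosarcoma type, vimentin, fibronectin and SPARC were bright, though the first and second of these are also among the 10 genes described. The others above the filter were dimmer. CDH2 ran from 291 to 1116 and COL1A1 from 138 to 250. COL1A2 (40.2 to 134), THY1 (70.9 to 111) and S100A4 (22.8 to 89.7) overlapped the range of the leukocyte markers above the filter. The lowest values of COL1A2 and S100A4 fell below that range.

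**Figure D1:**
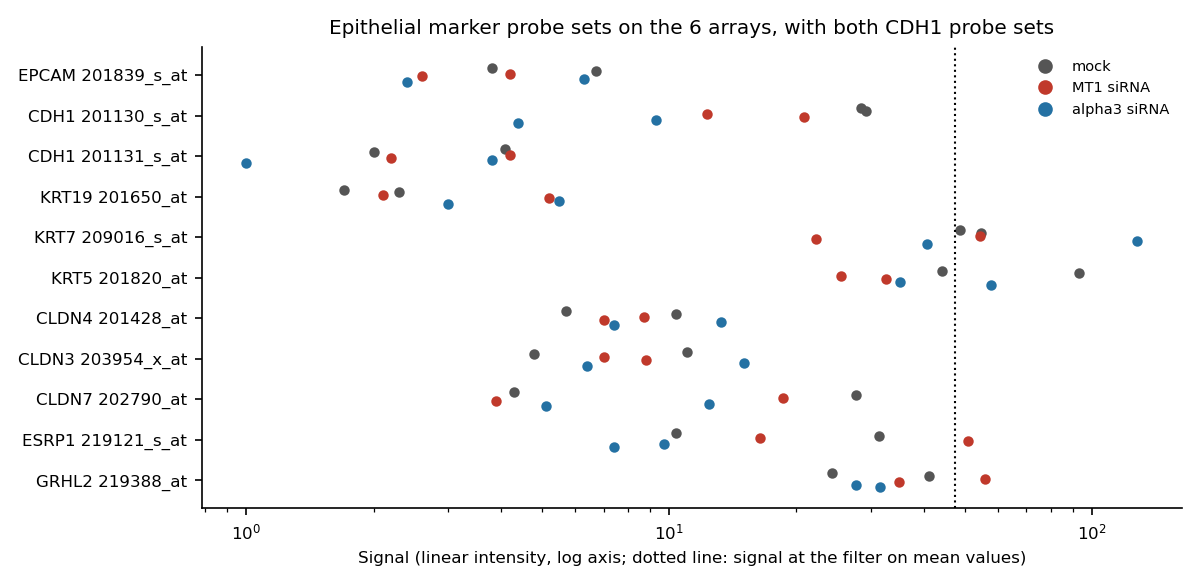
Signal (linear intensity on a log axis) of 11 epithelial probe sets on the 6 arrays, each point 1 array coloured by group, with the filter signal of 47.5 as a dotted line. EPCAM and both CDH1 probe sets lie left of the line on every array, KRT5 lies right of it on 2 arrays, and KRT7 is the one whose mean log2(signal + 32) passed the filter.

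Fibronectin, the adhesive glycoprotein of the mesenchymal matrix, varied more over the 6 arrays than any other gene of the set. FN1 on its brightest probe set, 210495_x_at, had 1869 and 5529 in mock, 12635 and 9354 with MT1 siRNA, and 5237 and 1882 with alpha3 siRNA. Both MT1 arrays lay above the other 4, while the mock and alpha3 arrays covered almost the same span. The group means were 3699 ± 2587.5 (SD, n = 2) in mock, 10995 ± 2319.8 (SD, n = 2) with MT1 siRNA and 3560 ± 2372 (SD, n = 2) with alpha3 siRNA. The FN1 promoter is shown here because FN1 had the largest difference of the 10 genes. The window (RefSeq, GRCh38.p14, chr2:215436019-215436318, minus strand) runs from 250 bases before to 50 after the start of the gene, 5′ to 3′, and capitals mark a cyclic AMP response element.
FN1: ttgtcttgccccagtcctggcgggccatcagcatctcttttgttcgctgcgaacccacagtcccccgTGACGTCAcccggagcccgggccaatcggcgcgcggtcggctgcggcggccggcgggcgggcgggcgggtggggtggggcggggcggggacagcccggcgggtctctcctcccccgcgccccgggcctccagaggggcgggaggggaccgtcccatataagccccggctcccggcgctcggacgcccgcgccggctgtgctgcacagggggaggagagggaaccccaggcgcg
The element TGACGTCA begins 183 bases before the start and reads the same on both strands. It was found in 1.85% of the 35116 promoter windows of that length. It was searched for after the sequence had been seen, and a match of letters is a description, not a site in use.

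With MT1 siRNA against mock, FN1 was higher by 1.75 on the log2 scale (SE 0.55, 95% interval 0.50 to 2.99), and did not pass the threshold (adjusted p = 0.233). The 5 tested probe sets agreed in direction, from 1.57 to 2.20, with adjusted p-values from 0.227 to 0.266. All of them are assigned to 1 gene and share the arrays, so they are not 5 independent measurements. The names of 210495_x_at, 211719_x_at and 216442_x_at end in _x_at, which the platform gives to probes that can also match other sequences. The dim probe set 214702_at had 17.2 and 51.3 in mock, 76.2 and 77.5 with MT1 siRNA, and 15.4 and 25.2 with alpha3 siRNA, so here too the MT1 arrays were the highest. The size depended on the mock array, at 0.97 without mock replicate 1 and 2.52 without mock replicate 2. The spiked controls were also brightest on the MT1 arrays (2.30 and 1.29), and their part in the FN1 difference was not tested.

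FN1 did not separate alpha3 from mock. The difference was -0.03 (SE 0.55, 95% interval -1.28 to 1.21, adjusted p = 0.996), and its sign turned under quantile normalization. The 5 tested probe sets ran from -0.24 to 0.05. That interval leaves room for more than a doubling or a halving. The replicates of both groups were themselves wide apart: the higher array was 2.96 times the lower in mock, 2.78 times in alpha3 and 1.35 times in MT1. The within-group SD of this probe set, 0.89 on the log2 scale, stood at the 99.1 percentile of all probe sets tested. Against alpha3 siRNA, MT1 siRNA gave 1.78 (SE 0.55, adjusted p = 0.114), with the 5 probe sets from 1.65 to 2.21. It was 1.05 without alpha3 replicate 2 and 2.51 without alpha3 replicate 1.

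The genes whose brightest probe set followed FN1 most closely over the 6 arrays were ALDOC, a glycolytic aldolase (Pearson r = 0.997), IFITM1, an interferon-induced membrane protein (r = 0.997), and CA12, a membrane carbonic anhydrase (r = 0.996). They were picked for their likeness among all genes tested, so these coefficients are a description. ALDOC had 82.9 and 1048 in mock, 4315 and 2221 with MT1 siRNA, and 920.5 and 114 with alpha3 siRNA. Its 6 arrays stood in the same order as those of FN1, whereas in IFITM1 and CA12 mock replicate 1 and alpha3 replicate 2 changed places.

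**Figure D2:**
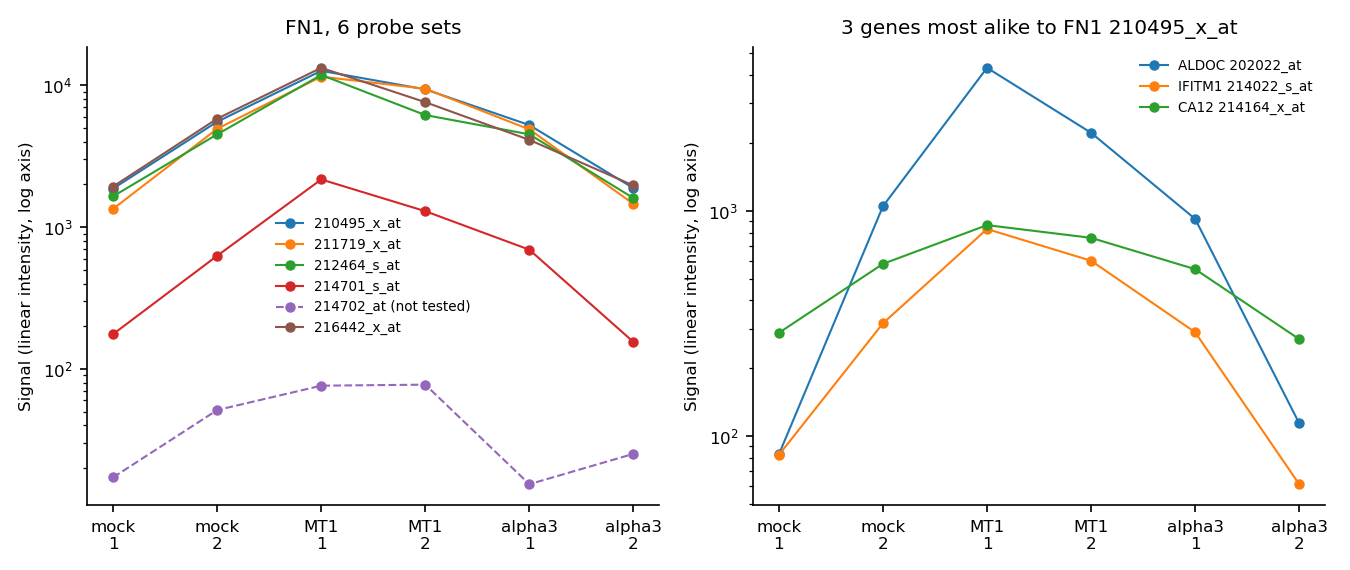
Signal (linear intensity, log axis) of the 6 FN1 probe sets, left, and of the 3 genes most alike to FN1 210495_x_at, right, on each of the 6 arrays, with lines joining the values of 1 probe set for reading only. The 5 tested FN1 probe sets peak on the MT1 arrays and are low on mock replicate 1 and alpha3 replicate 2.

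Genes that bind or assemble fibronectin, from a list of 17 of which 13 were tested, showed 13 of 13 above 0 with MT1 siRNA against mock, with a median of 0.35 beside 0.00 over all probe sets tested. None was called (0.0169% of all probe sets were), 3 had an unadjusted p under 0.05, and 6 of the 13 had higher arrays that did not overlap, as 24.3% of all probe sets did. ITGB1, the beta1 integrin chain, had 3894 and 4296 in mock against 7820 and 5868 (log2 difference 0.72, adjusted p = 0.179). ITGB5, an integrin chain that pairs with alphaV, had 1053 and 1667 against 3025 and 2216 (0.95, adjusted p = 0.247). ITGA4, the alpha4 chain, had 183 and 20.4 against 281 and 201 (1.35, adjusted p = 0.322). With alpha3 siRNA against mock the median of the same list was 0.05, with 7 above 0 and 6 below. ITGA5, the alpha5 chain of the main fibronectin receptor, had 1014 and 1400 in mock and 877 and 703 with alpha3 siRNA (-0.58, adjusted p = 0.892).

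N-cadherin, the adherens junction cadherin of mesenchymal and neural cells, gave the one call among the 15 probe sets in the fit of the 3 groups without a block. CDH2 on 203441_s_at had 180 and 219 in mock, 137 and 144 with MT1 siRNA, and 520 and 312 with alpha3 siRNA. The 3 groups did not overlap, with alpha3 highest and MT1 lowest. CDH2 was lower with MT1 siRNA than with alpha3 siRNA by -1.34 on this scale (SE 0.26, 95% interval -1.92 to -0.75, limma adjusted p = 0.0486). In this comparison 1.37% of all probe sets were called, 0.829% higher with MT1 siRNA and 0.541% lower. The call held in 4 of 15 other settings, where the adjusted p ran from 0.0432 to 0.290, and it was lost on leaving out any 1 array. Exchanging the mock replicate numbers in a block, not counted among these settings, also gave a CDH2 call, on a probe set that was not recorded. That block was chosen after seeing the data and called 830 of 11828 probe sets, so it adds no support to the call. In the fits without a block that left out 1 array, the value of 203441_s_at ranged from -1.68 without alpha3 replicate 2 to -0.998 without alpha3 replicate 1.

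The brightest CDH2 probe set, 203440_at, did not pass. It had 291 and 490 in mock, 486 and 457 with MT1 siRNA, and 1116 and 536 with alpha3 siRNA, so the alpha3 arrays were again highest, while mock and MT1 overlapped. MT1 minus alpha3 was -0.68 there (SE 0.35, adjusted p = 0.284), and moved from -1.19 without alpha3 replicate 2 to -0.17 without alpha3 replicate 1. With alpha3 siRNA against mock, the 2 probe sets gave 0.97 (SE 0.35) and 0.92 (SE 0.26), with adjusted p-values of 0.892 and 0.855. The first was 0.47 without alpha3 replicate 1 and 1.48 without alpha3 replicate 2. Between MT1 siRNA and mock they disagreed in sign, at 0.29 and -0.42.

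The CDH2 promoter is shown because CDH2 held the call and because Slug and ZEB1 bind E-boxes. The window (RefSeq, GRCh38.p14, chr18:28177081-28177380, minus strand) again spans 250 bases before to 50 after the start of the gene, and no letters are in capitals because it holds no E-box CANNTG.
CDH2: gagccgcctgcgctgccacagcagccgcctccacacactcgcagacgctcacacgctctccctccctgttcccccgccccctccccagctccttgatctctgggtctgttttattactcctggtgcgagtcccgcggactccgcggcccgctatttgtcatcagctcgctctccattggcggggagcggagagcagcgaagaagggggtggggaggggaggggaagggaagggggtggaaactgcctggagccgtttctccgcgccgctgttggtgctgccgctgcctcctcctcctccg
It holds 0 matches to CANNTG, a pattern that reads the same on both strands, whereas 68.7% of all windows hold at least 1. The forms CACCTG and CAGGTG, counted within that pattern, occur in 20.6% of windows. A second CDH2 window in the table, at an inner start, holds 1, CAGATG, at 97 bases before that start. The FN1 and VIM windows hold 0, the KRT8 window, also at an inner start, holds 3, and the first of 7 ZEB1 windows holds 2, one of them CAGGTG at 57 bases before the start. The 6 other ZEB1 windows hold from 0 to 3. Of the 10 genes, 5 had a window in the table: FN1, VIM, ZEB1, KRT8 and CDH2.

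Other genes of cadherin junctions gave no call in any comparison. Of all probe sets 0.0169% were called for MT1 siRNA against mock, 0.00845% for alpha3 siRNA against mock and 1.37% between the siRNAs. At these shares 0 of 11 is no result about these genes. Of 11 tested genes of the cadherin and catenin list, 6 were above 0 with MT1 siRNA and 6 with alpha3 siRNA, each against mock, with medians of 0.02 and 0.05. NECTIN3, an immunoglobulin-type adhesion molecule of adherens junctions, had 285.5 and 253 in mock, 446 and 434 with MT1 siRNA, and 232 and 267.5 with alpha3 siRNA (0.65 for MT1 siRNA against mock, adjusted p = 0.220). CTNNAL1, a relative of alpha-catenin, had 1282 and 1729 in mock and 832 and 1119 with MT1 siRNA (-0.61, adjusted p = 0.286).

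The keratin pair lay highest in the alpha3 group. KRT8, the type II keratin of simple epithelia, had 485 and 609 in mock, 609 and 431 with MT1 siRNA, and 1457 and 945 with alpha3 siRNA. Mock and MT1 overlapped, and both alpha3 arrays were above them. KRT18, its type I partner, had 2482 and 2542 in mock, 2076 and 1807 with MT1 siRNA, and 3121 and 3220 with alpha3 siRNA. For KRT18 the 3 groups did not overlap, in the order MT1, mock, alpha3, and the replicates lay close together (within-group SD 0.08 on the log2 scale, the 5.71 percentile of all probe sets tested).

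With alpha3 siRNA against mock, KRT8 was higher by 1.07 (SE 0.27, 95% interval 0.45 to 1.68, adjusted p = 0.819) and KRT18 by 0.33 (SE 0.16, 95% interval -0.04 to 0.71, adjusted p = 0.892). Between MT1 siRNA and mock, KRT8 gave -0.08 (SE 0.27), which turned to 0.16 without MT1 replicate 2, and KRT18 gave -0.37 (SE 0.16, adjusted p = 0.358). Between the 2 siRNAs both keratins were nearest to the threshold after CDH2: KRT8 was at -1.15 (SE 0.27, adjusted p = 0.0692) and KRT18 at -0.70 (SE 0.16, adjusted p = 0.0690) with MT1 siRNA relative to alpha3 siRNA. The sums of the epithelial markers, which hold neither of these keratins, overlapped between these groups (205 and 189 against 262.5 and 166). The part of these markers in the keratin values was not tested. Both keratins are measured by a single probe set whose name ends in _x_at, which the platform gives to probes that can also match other sequences, and keratin 8 and 18 have many processed pseudogenes, so the source of the signal is uncertain. The 2 genes are neighbours in the RefSeq annotation, where their records overlap.

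Vimentin was bright and steady. VIM, the main intermediate filament of mesenchymal cells, had 13725 and 13664 in mock, 17700 and 14507 with MT1 siRNA, and 12271 and 12784 with alpha3 siRNA. The groups did not overlap, in the order alpha3, mock, MT1, which is the reverse of the order of KRT18. The differences were small, at 0.23 for MT1 siRNA against mock (SE 0.14, adjusted p = 0.493), -0.13 for alpha3 siRNA against mock (SE 0.14, adjusted p = 0.927) and 0.35 between the siRNAs (SE 0.14, adjusted p = 0.184). Quantile normalization turned the first to -0.03 and left 0.01 of the last. Without MT1 replicate 1 the first was 0.08 and the last 0.21.

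From a list of other intermediate filament genes, which also holds the filament anchors DSP and PLEC, 14 of the 30 on the array were tested. Of these, 0 were called in any comparison. Of all probe sets 0.0169%, 0.00845% and 1.37% were called, shares at which 0 of 14 is no result about these genes. LMNB1, a nuclear lamin, had 344 and 233 in mock, 144 and 212 with MT1 siRNA, and 443 and 482.5 with alpha3 siRNA, and the siRNAs differed by -1.25 (adjusted p = 0.0537). KRT10, a type I keratin of stratified epithelia, had 1515.7 and 1495 with MT1 siRNA against 2102 and 2018 with alpha3 siRNA (-0.44, adjusted p = 0.162). DSP, the desmosomal plakin that anchors keratins, ran the other way, at 252 and 213 against 96.3 and 76.2 (1.16, adjusted p = 0.132).

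**Figure D3:**
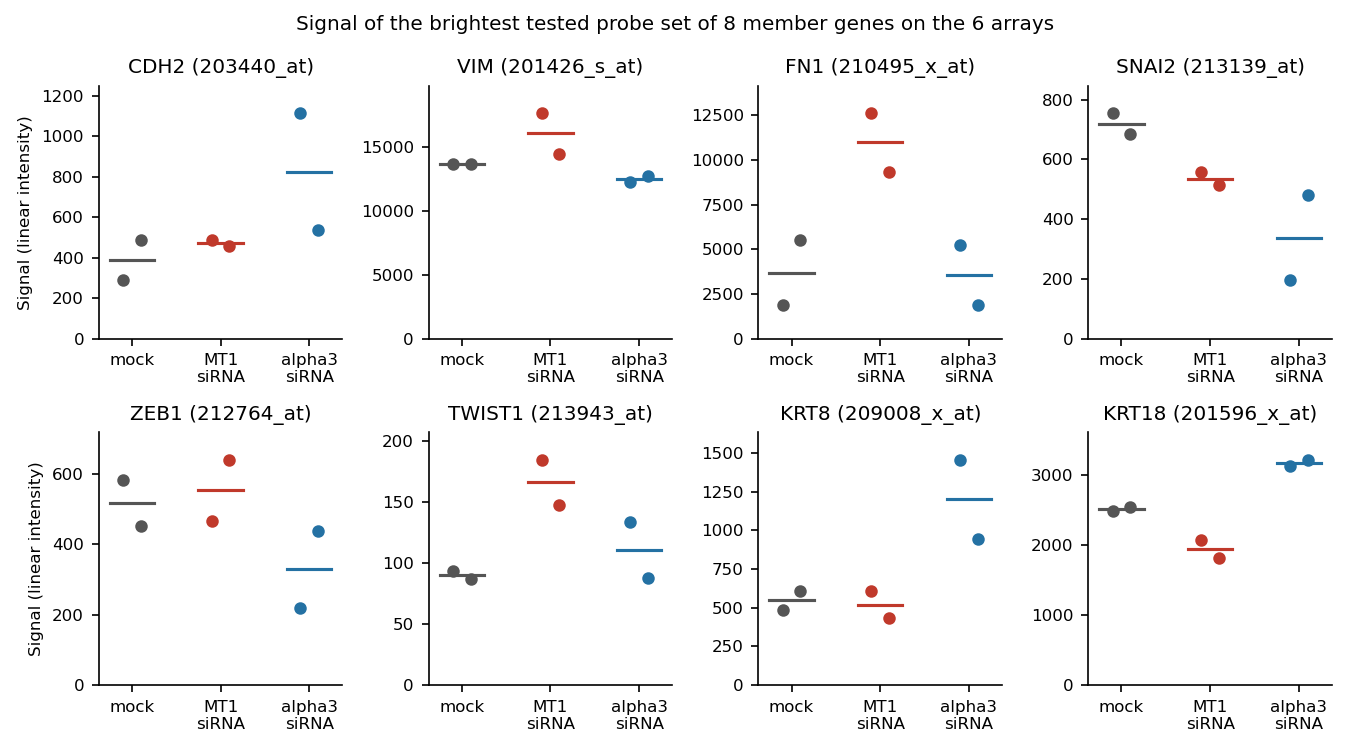
Signal (linear intensity) of the brightest tested probe set of 8 genes in mock, MT1 siRNA and alpha3 siRNA cells, each point 1 array and each bar the mean of 2. KRT8, KRT18 and CDH2 are highest in the alpha3 group, SNAI2 and ZEB1 lowest there, and FN1 and TWIST1 highest in the MT1 group.

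The transcription factors lay apart from one another. SNAI2, the E-box repressor Slug, had 755 and 684.5 in mock, 556 and 515 with MT1 siRNA, and 195 and 481 with alpha3 siRNA. The mock arrays were the highest and the alpha3 arrays the lowest, without overlap, though the alpha3 arrays differed 2.46 times. The difference was -1.14 for alpha3 siRNA against mock (SE 0.34, 95% interval -1.91 to -0.36, adjusted p = 0.892) and -0.40 for MT1 siRNA against mock (SE 0.34, adjusted p = 0.631). The first was -1.72 without alpha3 replicate 2 and -0.55 without alpha3 replicate 1.

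ZEB1, a zinc finger and homeodomain repressor, had 581 and 451 in mock, 466 and 640.1 with MT1 siRNA, and 218 and 438 with alpha3 siRNA on its brightest probe set. The alpha3 arrays were below both mock arrays on each of its 3 probe sets. The 3 differences between alpha3 siRNA and mock were -0.79, -0.67 and -0.54, each with an adjusted p of 0.892, and the brightest went from -1.12 without alpha3 replicate 2 to -0.21 without alpha3 replicate 1. The MT1 arrays overlapped mock on all 3, with differences from -0.24 to 0.09.

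The values of SNAI2, ZEB1, CDH2 and KRT8 in the alpha3 group lay furthest from mock on the same array. Alpha3 replicate 1 had the lower value of SNAI2 and ZEB1 (195 and 218) and the higher value of CDH2 and KRT8 (1116 and 1457), and alpha3 replicate 2 lay nearer to mock for each of these 4 genes. They were singled out after their values were seen, and KRT18 did not share the pattern, with 3121 on replicate 1 and 3220, further from mock, on replicate 2. ITGA3 itself was lower on replicate 1 (148) than on replicate 2 (347). Replicate 1 was also the array with few values below 1, and its part in these values was not tested. With 2 arrays no relation between these values can be tested.

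TWIST1, the helix-loop-helix factor, had 93 and 86.8 in mock, 185 and 147.5 with MT1 siRNA, and 134 and 87.8 with alpha3 siRNA. The MT1 arrays lay above the other 4, while mock and alpha3 overlapped. With MT1 siRNA against mock it was higher by 0.69 (SE 0.24, 95% interval 0.15 to 1.24, adjusted p = 0.264), and with alpha3 siRNA by 0.21 (SE 0.24, adjusted p = 0.929), which turned to -0.02 without alpha3 replicate 1. Between the siRNAs the 3 factors were higher with MT1 siRNA, SNAI2 by 0.73 (SE 0.34), ZEB1 by 0.75 (SE 0.32) and TWIST1 by 0.48 (SE 0.24), and none passed (adjusted p = 0.243, 0.204 and 0.270). Without alpha3 replicate 1 SNAI2 was at 0.15 and ZEB1 at 0.30, without alpha3 replicate 2 these were 1.32 and 1.21, and TWIST1 was at 0.25 without alpha3 replicate 2.

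From a list of other transcription factors of this transition and regulators of such factors, 13 of 19 on the array were tested. With MT1 siRNA against mock 5 were above 0 and 8 below, and the median was -0.23. None was called, where 0.0169% of all probe sets were. HMGA2, a chromatin protein that induces such factors, had 1531 and 2335 in mock and 772.5 and 979 with MT1 siRNA (-1.09, adjusted p = 0.165). ID3 and ID2, inhibitors of helix-loop-helix factors, had 815 and 540 against 372 and 262, and 130 and 76.1 against 41.7 and 50.4 (-1.01 and -0.76, adjusted p = 0.179 and 0.268). SOX9, a neural crest and cartilage factor, had 816 and 959 against 1475 and 1579.5 (0.76, adjusted p = 0.177). Between the siRNAs, where 1.37% of all probe sets were called, ID3 was the 1 gene of this list to pass. Its difference was -1.32 (SE 0.25, limma adjusted p = 0.0486), and it had 818 and 834 with alpha3 siRNA. The call of ID3 was lost without either MT1 array or either alpha3 array (adjusted p from 0.0921 to 0.196) and kept without either mock array. With alpha3 siRNA against mock the median was -0.12, with 4 above 0 and 9 below. Again 0 were called, where 0.00845% of all probe sets were. At such shares 0 of 13 against mock is no result about these genes.

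**Figure D4:**
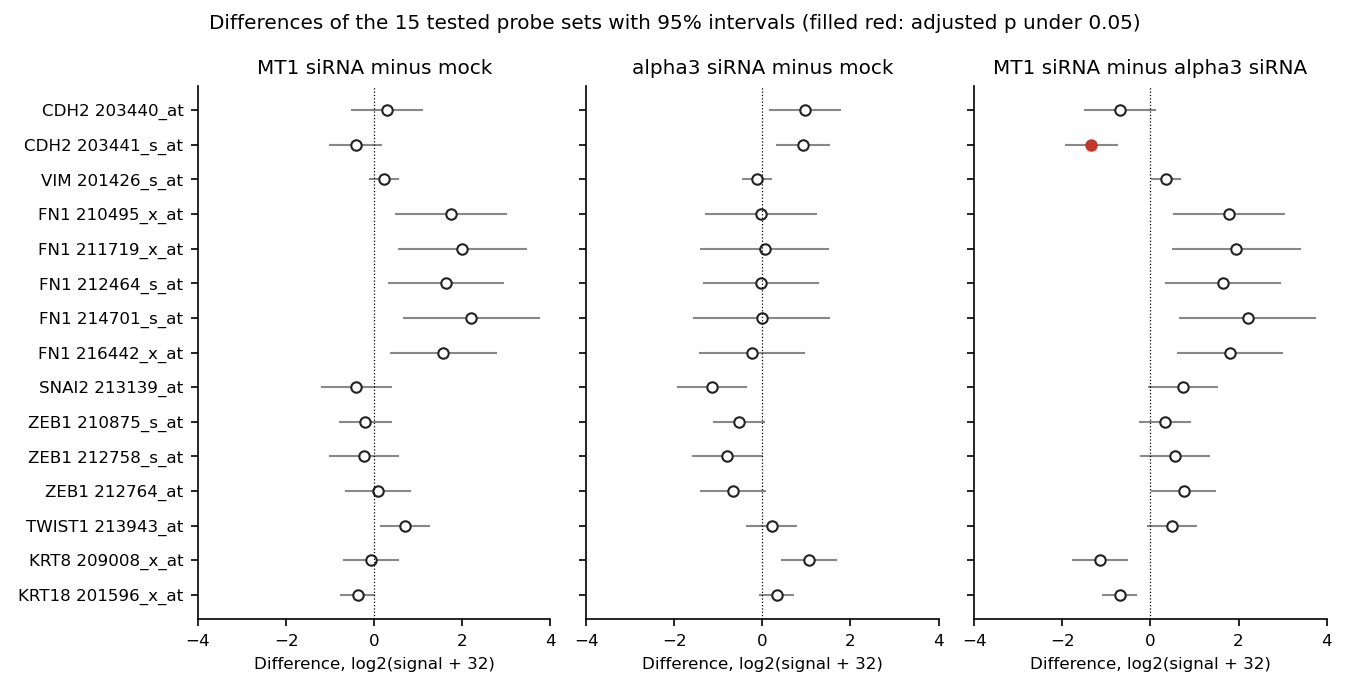
Difference on the log2(signal + 32) scale for the 15 tested probe sets in the 3 comparisons, with 95% intervals from limma and the filled red point marking an adjusted p under 0.05. The 5 FN1 probe sets lie right of 0 for MT1 siRNA against mock and around 0 for alpha3 siRNA, and the filled point is CDH2 203441_s_at, the one call.

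Counted together for MT1 siRNA against mock, 0 of the 15 probe sets were called, where 0.0169% of all tested probe sets were (2 of 11828). Arrays did not overlap for 7 probe sets on the higher side and 3 on the lower, where 24.3% and 24.8% of all probe sets did so. Per gene these were VIM, FN1 and TWIST1 on the higher side and SNAI2 and KRT18 on the lower, 5 of 8 genes (62.5%) against 49% of all probe sets. An unadjusted p under 0.05 was found for 6 probe sets, all higher, of which 5 were FN1 and 1 was TWIST1, where 6.88% of all probe sets reached it in that direction and 7.19% in the other.

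For alpha3 siRNA against mock 0 of 15 were called, where 0.00845% of all were (1 of 11828). Arrays did not overlap for 4 probe sets on the higher side, against 16.7% of all, and for 5 on the lower, against 17.7%. Per gene these were CDH2, KRT8 and KRT18 on the higher side and VIM, SNAI2 and ZEB1 on the lower, 6 of 8 (75%) against 34.4% of all probe sets. An unadjusted p under 0.05 was found for 3 probe sets on the higher side and 2 on the lower, where 2.36% and 3% of all reached it.

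Between the siRNAs 1 of 15 was called, against 1.37% of all, and 13 of 15 did not overlap, 9 higher with MT1 siRNA (27.5% of all) and 4 lower (25.6%). Per gene VIM, FN1, SNAI2, ZEB1 and TWIST1 were higher with MT1 siRNA and CDH2, KRT8 and KRT18 were lower, which made 8 of 8 against 53.2% of all probe sets. In all 3 comparisons the gene counts use the brightest probe set, whereas the shares beside them cover all tested probe sets. Those shares were not recomputed per gene. An unadjusted p under 0.05 was found for 7 probe sets on the higher side, against 11.6% of all, and 3 on the lower, against 11%. The 3 comparisons share their arrays, and 2 arrays against 2 cannot give an exact permutation p below 0.333, so single values were not tested in that way. In a bulk culture, less RNA per cell and fewer cells with the transcript cannot be told apart.

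Mesenchymal and epithelial genes outside the 10 differed in how many were bright enough to test: 27 of 39 mesenchymal genes on the array and 16 of 54 epithelial genes, where 67.2% of all genes were tested. With MT1 siRNA against mock, 22 of the 27 mesenchymal genes were above 0 and 14 had higher arrays without overlap, as 24.3% of all probe sets did. The median was 0.37, and 0 were called, where 0.0169% of all were. The summed smooth muscle and pericyte markers were also highest in the MT1 group (1241 and 933), and their part in this was not tested. ACTA2 and TAGLN are in both lists, and ACTA2 alone had 1003 and 794.5 with MT1 siRNA. That sum is therefore not separate from the 27 genes. SPARC, a matricellular protein, had 3189 and 3287 in mock and 8295 and 5052 with MT1 siRNA (0.99, adjusted p = 0.180). MMP2, a gelatinase that MT1-MMP activates, had 429.5 and 671.5 against 1271 and 1066 (1.07, adjusted p = 0.220), and FBN1, fibrillin 1 of microfibrils, had 214 and 356.5 against 644 and 509.7 (0.97, adjusted p = 0.190).

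With alpha3 siRNA against mock the same 27 genes had a median of -0.01, with 13 above 0 and 14 below and 0 called. Of all probe sets 0.00845% were called, a share at which 0 of 27 is no result about these genes. LOX, the collagen crosslinking oxidase, had 616 and 2853 in mock and 518 and 273 with alpha3 siRNA (-1.74, adjusted p = 0.892). S100A6, a calcium-binding protein, had 10189.5 and 10761 against 6666 and 7632 (-0.55, adjusted p = 0.855). TAGLN, an actin-binding protein of smooth muscle, had 28.6 and 51.9 against 263 and 57.3 (1.19, adjusted p = 0.892). Between the siRNAs, where 1.37% of all probe sets were called, S100A6 was the 1 gene of this list to pass. S100A6 was higher with MT1 siRNA by 0.93 (SE 0.16, limma adjusted p = 0.0351). Its call was lost on leaving out any 1 array (adjusted p from 0.0587 to 0.188).

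The 16 tested epithelial genes outside the 10 gave 0 calls in each of the 3 comparisons, where 0.0169%, 0.00845% and 1.37% of all probe sets were called, shares at which 0 of 16 is no result about these genes. Their medians were -0.11 for MT1 siRNA and -0.01 for alpha3 siRNA against mock. DSG2, a desmosomal cadherin, had 1089.7 and 1092.5 in mock, 683 and 567 with MT1 siRNA, and 978.5 and 855 with alpha3 siRNA (-0.78 for MT1 siRNA against mock, adjusted p = 0.179). DSP, which is also in the intermediate filament list, had 184 and 53.2 in mock against 252 and 213 with MT1 siRNA (0.96, adjusted p = 0.322). LAD1, an anchoring filament protein of epithelia, had 166 and 133 in mock and 31.9 and 83.3 with alpha3 siRNA (-1.07, adjusted p = 0.855).

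**Figure D5:**
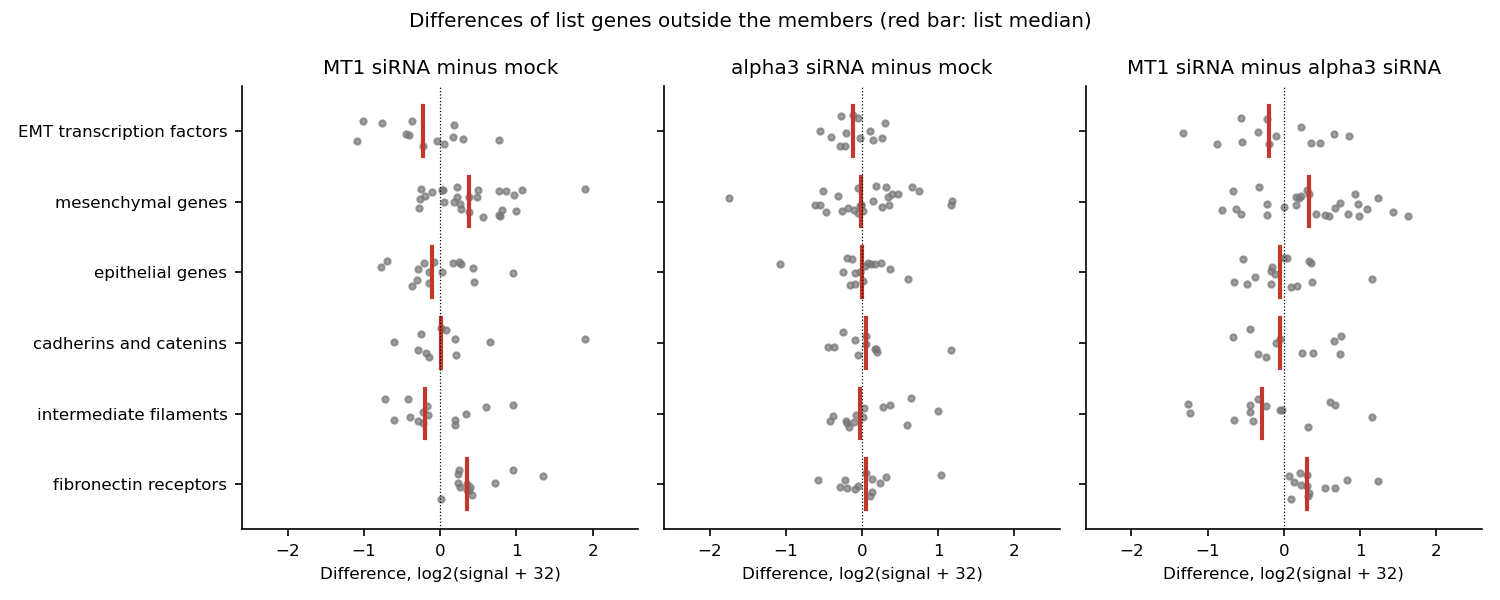
Difference on the log2(signal + 32) scale of the tested genes of 6 lists, without the 10 genes described, in the 3 comparisons, each grey point 1 gene by its brightest probe set and each red bar the list median. With MT1 siRNA against mock the medians of the mesenchymal list (0.37) and the fibronectin receptor list (0.35) lie right of 0, and with alpha3 siRNA they lie at -0.01 and 0.05.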

How the data were processed

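The authors deposited 1 linear intensity for each probe set and array. Trimmed to its middle 96%, each array had a mean of 250.1, so scaling preceded deposit. How probes were summarised is not given in the sources used here. Probe sets were named from the platform annotation, and those with several or no symbols and the 68 controls were left out. Values under 1 were set to 1, 32 was added and log2 taken. Singly named probe sets whose mean exceeded the 40th percentile (11828 of 8045 genes) were tested with limma 3.58.1 in R 4.3.3, as 3 group means with an intensity trend (3 residual and 5.51 prior degrees of freedom), without a block. The fit was tested on simulated data with known changes. An SE is that of the log2 difference. Promoter windows of RefSeq were searched for E-boxes.

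The members and lists were chosen with earlier results of these data known. The text names all 10 genes, the siRNA targets, called list genes or, failing any, up to 3 each way whose unadjusted p was under 0.05 without overlap, and the 3 genes most alike to the most variable member. Alternatives were other scalings, offsets, filters, units and fits, and leaving out each array. Figures used matplotlib 3.10.9.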

Additional observations from a re-analysis of the deposited data

How the results depend on the processing

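Of the 25 member differences recomputed under up to 17 settings, 19 kept their sign in all of them. Sign turned for FN1, alpha3 siRNA against mock, under quantile normalization (0.0026), and without 1 array it ran from -0.81 to 0.74. For MT1 siRNA against mock it turned for VIM under quantile normalization (-0.026), for CDH2 (-0.064) and ZEB1 (-0.12) with probe sets averaged per gene, and, without 1 array, for CDH2 (-0.053 to 0.64), KRT8 (-0.32 to 0.16) and ZEB1 (-0.13 to 0.30). TWIST1, alpha3 siRNA against mock, ran from -0.025 to 0.45 without 1 array. The cause was not tested. The called CDH2 probe set between the siRNAs lost its call with an offset of 1 (adjusted p = 0.0564), no filter (0.0972), no trend (0.0639), only the 2 groups (0.0607) and the replicate number as a block (0.0660).

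Probe sets called for MT1 siRNA against mock numbered 2, and 0 with the brightest probe set, no filter or the 60th percentile filter, 1 without the trend, 4 with an offset of 1, 14 with an offset of 100, 10 with a common 75th percentile, 12 with only the 2 groups, 6 with the replicate block, and 0 to 13 without 1 array. Unadjusted, 1664 had a p under 0.05. For alpha3 siRNA against mock the count of 1 became 0 with an offset of 1 or the 60th percentile filter, 2 with the mean of probe sets, and 0 to 2 without 1 array, beside 634 at an unadjusted p under 0.05. Between the siRNAs 162 became 84 without the trend, 93 with the mean of probe sets, 1 without a filter, 99 with an offset of 1, and 0 to 143 without 1 array. The replicate numbers share no stated batch, and same-numbered deviations correlated at -0.19 (mock and MT1), -0.17 (mock and alpha3) and 0.13 (MT1 and alpha3). With the mock numbers exchanged, a setting chosen after seeing the data, 97, 5 and 830 were called, among them 4 probe sets of FN1 for MT1 siRNA against mock, 0 of the 10 genes for alpha3 siRNA against mock, and 8 of CDH2, FN1, KRT8 and KRT18 between the siRNAs.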
